A study of Bos taurus with 12 samples.

Results

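The microRNAs miR-23, miR-24 and miR-27 are cut from 6 hairpins in 2 genomic clusters, and each hairpin can give a 5p and a 3p mature arm. Their rows were taken from the deposited miRNA table by name, as every row with the number token miR-23a, 23b, 24, 24-1, 24-2, 27a or 27b, whatever its arm or species prefix. The rule found 12 names among 1330, or 13 rows among the 1458 deposited, because miR-24-3p was listed once for each of the 2 hairpins that encode it. Those 12 names were 7 5p arms and 5 3p arms. Without miR-27a-p5, a 5p row that entered no arm ratio, they formed 6 of the 286 hairpins that had both arms in the table.

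The cells were bovine intramuscular adipocyte precursors from the longissimus muscle of newborn Qinchuan cattle, grown in culture. Libraries came from 4 days, with 3 libraries each: 0 d, before induction, and 3 d, 6 d and 9 d after it. All induced cells were given dexamethasone, IBMX and insulin for the first 2 days, and insulin alone from then on, so that the 3 d libraries followed shortly after the change of medium. The labels do not say whether the replicates were separate animals, so the p-values measure the spread between libraries.

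A hairpin is cut from a long primary transcript by DROSHA and then by DICER1, which leaves a duplex of the 5p and the 3p arm. One arm is usually kept in an Argonaute protein and the other is mostly degraded. The ratio of the 2 arms is taken within a library, so it does not depend on how many reads that library has. The arm that is kept finds mRNAs mainly through its seed, bases 2 to 8 counted from its 5′ end. In fat cells miR-27 is known as an inhibitor of adipogenesis. Reported targets of the miR-24 family include cell cycle and apoptosis genes.

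The mature sequences of the detected reads are shown because the seeds set which members can share targets. They are written 5′ to 3′ as in the deposited table, with the seed in capitals. The dominant 3p arms fall into 3 seed groups.
miR-23a-3p: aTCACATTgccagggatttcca
miR-23b-3p: aTCACATTgccagggattaccac
miR-27a-3p: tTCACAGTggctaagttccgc
miR-27b-3p: tTCACAGTggctaagttctgc
miR-24-3p: tGGCTCAGttcagcaggaac

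The 5p arms, by contrast, share a seed only between miR-27a-5p and miR-27a-p5.
miR-23a-5p: gGGGTTCCtggggatgggattt
miR-23b-5p: gGGTTCCTggcatgctgattt
miR-27a-5p: aGGGCTTAgctgcttgtgagca
miR-27a-p5: gGGGCTTAgctgcttgtgagca
miR-27b-5p: aGAGCTTAgctgattggtgaaca
miR-24-2-5p: gTGCCTACtgagctgaaacacagt
miR-24-1-5p: gGTGCCTActgagctgatatca
The 3p arm of miR-23a differs from that of miR-23b by T19A, counted from the 5′ end, and by 1 further base at the end of miR-23b-3p. Between miR-27a-3p and miR-27b-3p the only substitution is C19T. The row miR-27a-p5, listed under an orangutan hairpin name, differs from miR-27a-5p by A1G, outside the seed. For miR-24-1-5p and miR-24-2-5p the detected reads start 1 base before the annotated arm, so that their seeds are shifted from the annotated ones.

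The a cluster lies on chromosome 7 of ARS-UCD1.2, plus strand, from 11838700 to 11839121, a span of 422 bp that holds mir-23a, mir-27a and mir-24-2 in that order. The b cluster lies on chromosome 8, plus strand, from 81617017 to 81617865, a span of 849 bp that holds mir-23b, mir-27b and mir-24-1. In the RefSeq annotation the b cluster sits inside AOPEP, an aminopeptidase gene, between FBP1 and FANCC. The a cluster sits inside the uncharacterized LOC132345691, between NANOS3 and ZSWIM4. The hairpins that carried the largest arm changes are shown with both mature arms in capitals.
mir-23a: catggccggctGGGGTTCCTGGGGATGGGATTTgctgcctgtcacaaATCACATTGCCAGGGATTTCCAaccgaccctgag
mir-27a: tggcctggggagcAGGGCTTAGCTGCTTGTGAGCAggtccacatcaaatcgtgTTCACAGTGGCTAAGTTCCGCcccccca

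The miRNA table held between 1438548 raw reads in 0 d replicate 3 and 4673382 in 6 d replicate 2. The 12 members took 5.16%, 4.94% and 3.01% of the reads of the 0 d libraries, 3.82%, 3.79% and 3.65% at 3 d, 5.30%, 5.81% and 4.67% at 6 d, then 4.38%, 4.45% and 4.97% at 9 d. One library stood apart: 0 d replicate 3 had the fewest reads and the smallest member share, and bta-miR-125b took 15.7% of its reads against 10.0% and 9.36% in the other 0 d libraries. Several changes against 0 d are therefore also given without it. Raw values were not whole in 341 of the 1330 names and in 5 of the 12 members, and how reads that fit several loci were counted is not stated. All 12 members reached the minimum total of 10 reads needed for testing, as did 1081 names in all.

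The 3p arms were the abundant products at every day. Mean normalized reads over the 12 libraries were 41217 for miR-23a-3p, 35592 for miR-27b-3p, 32822 for miR-23b-3p, 6415 for miR-24-3p and 4584 for miR-27a-3p, which placed them at ranks 18, 20, 24, 69 and 82 of the 1330 names. Among the 5p arms, miR-24-2-5p averaged 335 normalized reads, miR-23b-5p 315 and miR-27a-5p 311. Those 8 rows were the members with a mean of at least 100. The remaining rows were miR-27b-5p at 76.6, miR-23a-5p at 44.9, miR-27a-p5 at 8.42 and miR-24-1-5p at 7.41 normalized reads.

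The 3p arms varied little in fold terms from one day to the next. miR-23a-3p had 54959, 46069 and 30669 normalized reads in the 0 d libraries, 35376, 33976 and 33738 at 3 d, 47342, 53760 and 33440 at 6 d, followed by 34663, 46464 and 44147 at 9 d. Its 0 d libraries spanned the values of the 3 d libraries, so those days overlapped. miR-23b-3p had 35096, 29399 and 26826 at 0 d, 25295, 24455 and 24533 at 3 d, 39522, 44576 and 33740 at 6 d, then 33451, 40996 and 35971 at 9 d. All its 3 d libraries lay below all its other libraries, by a narrow margin against 0 d. In fold terms that 3 d difference was small, with a log2 change of -0.17 against 0 d.

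In normalized reads miR-27b-3p had its lowest libraries at 3 d, by a narrow margin against 0 d, and its highest at 9 d. Its fitted log2 change at 3 d against 0 d was -0.07 (edgeR adjusted p = 0.926). It had 28597, 33086 and 27654 normalized reads at 0 d, 25891, 25277 and 26903 at 3 d, 38025, 35563 and 41238 at 6 d, followed by 48243, 44441 and 52190 at 9 d. Every 6 d and every 9 d library exceeded every 0 d library, and the 6 d and 9 d libraries did not overlap either. miR-27a-3p, with the same seed, had 4868, 4782 and 3707 at 0 d, 3497, 3640 and 3382 at 3 d, 5106, 6103 and 3813 at 6 d, then 5089, 5282 and 5735 at 9 d. miR-24-3p had 6445, 6569 and 4504 at 0 d, 5813, 6017 and 5678 at 3 d, 6672, 6641 and 5588 at 6 d, followed by 6769, 7256 and 9030 at 9 d. In both rows the 9 d libraries lay above all the 0 d libraries, while 0 d replicate 3 was the lowest 0 d library. Neither row was called at 9 d, with log2 changes of 0.45 and 0.57 (edgeR adjusted p = 0.135 and 0.0560). Their order of days rests on the authors' scaling. Its normalized totals were 2542451, 2455017 and 3157570 at 0 d and 2953530, 3273313 and 2984530 at 9 d.

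The 5p arms moved far more, and most of them were lowest at 3 d. miR-27a-5p had 471, 472 and 369 normalized reads at 0 d, 44.1, 55.7 and 48.1 at 3 d, 307, 380 and 527 at 6 d, then 305, 333 and 417 at 9 d. Its 3 d libraries were far below the other 9 libraries, which overlapped among themselves. miR-23a-5p had 92.5, 83.5 and 81.2 at 0 d, 7.92, 14.8 and 7.40 at 3 d, 47.9, 57.8 and 55.8 at 6 d, followed by 45.2, 25.4 and 19.5 at 9 d. This arm was lowest at 3 d and did not return to its 0 d level in any later library. The raw counts behind its 3 d values were 7, 18 and 8 reads.

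The 5p arms of miR-23b, miR-27b and miR-24-2 had a shallower dip at 3 d. miR-23b-5p had 352, 365 and 637 normalized reads at 0 d, 152, 175 and 217 at 3 d, 294, 344 and 457 at 6 d, then 271, 269 and 250 at 9 d. miR-27b-5p had 67.1, 77.3 and 74.6 at 0 d, 44.1, 45.1 and 35.1 at 3 d, 112, 104 and 148 at 6 d, followed by 74.2, 59.6 and 78.7 at 9 d. Both rows had all 3 d libraries below all libraries of every other day. miR-24-2-5p of the a cluster went from 312, 349 and 402 at 0 d to 222, 211 and 190 at 3 d, 312, 305 and 311 at 6 d, then 425, 466 and 510 at 9 d. Its order of days, lowest at 3 d and highest at 9 d, was without overlap at either end.

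miR-27a-p5 had 7.46, 6.23 and 13.2 normalized reads at 0 d, 0 in all 3 d libraries, 4.13, 12 and 12.4 at 6 d, followed by 14.5, 23.2 and 7.96 at 9 d. Its 3 d zeros followed the dip of miR-27a-5p, with which it shares all bases but the first. miR-24-1-5p, with 0 to 30 raw reads per library, was too sparse to order the days.

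**Figure D1:**
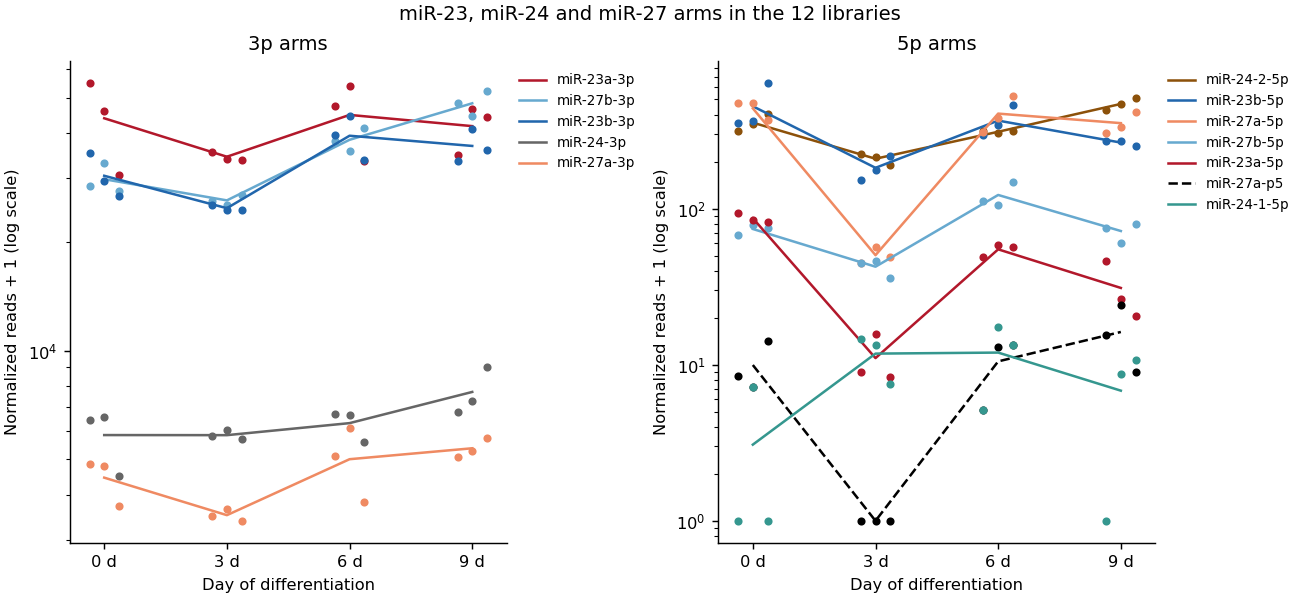
Normalized reads plus 1 on a log axis for the 5 3p arms (left) and the 7 5p arms (right) by day; points are the 12 libraries and lines join the day means. The 3p arms stay within a narrow band, while miR-27a-5p and miR-23a-5p drop at 3 d to means of 49.3 and 10.0 from 438 and 85.7 at 0 d.

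Changes were tested with edgeR over all 1081 names, and a row was called when its log2 change exceeded 1 in size with an adjusted p under 0.05. At 3 d against 0 d, 4 of the 12 members were called, all lower and all 5p arms, against 6.38% of all names tested. The count includes both miR-27a-5p and miR-27a-p5, which differ in the first base only. The bovine mir-27a hairpin has the base of miR-27a-5p there, and the authors' mapping allowed 1 mismatch. Whether they are separate products was not tested, so the count may hold one product more than once. miR-27a-5p fell by 3.02 on the log2 scale, an 8.12-fold decrease (SE 0.263, adjusted p = 3.98e-06, n = 3 libraries per day). miR-23a-5p fell by 2.94 (SE 0.424, adjusted p = 0.000400), a 7.66-fold decrease. miR-23b-5p fell by 1.15 (SE 0.243, adjusted p = 0.00791). For miR-27a-p5, called at an adjusted p of 0.00951, the 3 d libraries held no read. Its 0 d mean stood 3.11-fold above a floor of 3 counts per 3 d library. That mean came from 5, 5 and 6 raw reads and carries its own error, so the value is not a lower bound. That call was lost in a fit of the 6 libraries alone (adjusted p = 0.185). The floor covers counting error only, since reads without molecular identifiers are not independent molecules.

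Of the other 5p arms at 3 d, miR-24-2-5p had a log2 change of -0.63 (adjusted p = 0.0408), short of the fold threshold, and miR-27b-5p of -0.68 (adjusted p = 0.159). miR-24-1-5p was at 2.26 with an SE of 1.36, and between 1.71 and 6.57 with 1 library left out. The 6.57 came without 0 d replicate 2, where the remaining 0 d libraries held no read of it, so it is not a measured fold. The median over the 7 5p arms was -1.15, against 0.03 over all names. No 3p arm was called at 3 d by edgeR, by DESeq2 or by limma on the normalized values. With edgeR 0 of the 5 had an unadjusted p under 0.05, against 233 of all 1081 names. The log2 changes of the 3p arms were -0.24 for miR-23a-3p, -0.22 for miR-27a-3p, -0.17 for miR-23b-3p, -0.07 for miR-27b-3p and 0.12 for miR-24-3p. Without 0 d replicate 3 these became -0.47, -0.37, -0.29, -0.16 and -0.07, so that the last turned its sign, and that of miR-27b-3p turned to 0.06 without 0 d replicate 2. Without 0 d replicate 1, miR-23a-3p was at -0.03 and miR-23b-3p at -0.04.

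The calls of miR-27a-5p and miR-23a-5p at 3 d held in every alternative fit and with each library left out. Without 0 d replicate 3, miR-27a-5p was at -3.16 and miR-23a-5p at -3.01 on the log2 scale. The call of miR-23b-5p was lost without that library (log2 change -0.89), without 3 d replicate 1 (-1.04, adjusted p = 0.0504) and in a fit of the 6 libraries alone (-1.15, adjusted p = 0.0625). Over all its alternatives the adjusted p of miR-23b-5p ran from 6.35e-05 to 0.0625. In these bulk libraries fewer cells that make an RNA and less of it per cell cannot be told apart.

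At 6 d against 0 d, 0 of the 12 members were called by edgeR, by DESeq2 or by limma on the normalized values, against 11.3% of all names. With edgeR 3 members had an unadjusted p under 0.05, against 302 of all 1081 names. miR-27b-5p was at 0.89 (adjusted p = 0.0325) and miR-27b-3p at 0.52 (adjusted p = 0.0392), both under the fold threshold. The median log2 change of all names at 6 d was 0.25 with edgeR, 0.25 with limma on the normalized values and 0.10 with DESeq2, a shift of -0.15. With edgeR on the names with a total of at least 120 reads it was 0.008. The cause of these shifts was not tested. miR-27a-5p had a log2 change of 0.04, so its mean of 405 normalized reads stood near the 438 of 0 d.

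At 9 d against 0 d, 1 of the 12 members was called, against 18.3% of all names. It was miR-23a-5p, which fell by 1.31 (SE 0.389, adjusted p = 0.0249), a 2.48-fold decrease. That call was lost without 0 d replicate 1 (adjusted p = 0.0503), without 9 d replicate 2 (0.0729), without 9 d replicate 3 (0.0851) and in a fit of the 6 libraries alone (0.0615), within a range over its alternatives from 0.00173 to 0.0851. miR-27b-3p was at 0.89 (SE 0.162, adjusted p = 0.00116), a 1.85-fold difference in which all 9 d libraries lay above all 0 d libraries, and it passed the fold threshold only without 0 d replicate 2 (1.01). miR-24-2-5p was at 0.60 (adjusted p = 0.0251).

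Between 3 d and 6 d, both with insulin alone in the medium, the dip reversed. Of the 12 members, 5 were called, all higher and all 5p arms, against 3.98% of all names. This count too includes both miR-27a-5p and miR-27a-p5, which may not be separate products. miR-27a-5p rose by 3.06 on the log2 scale (SE 0.263, adjusted p = 8.16e-06), and miR-23a-5p rose by 2.43 (SE 0.417, adjusted p = 0.00215). miR-27b-5p rose by 1.58 (SE 0.267, adjusted p = 0.00215), and miR-23b-5p rose by 1.04 (SE 0.242, adjusted p = 0.020). miR-27a-p5, without a read at 3 d, had a 6 d mean 3.31-fold above the same floor, from 5, 22 and 20 raw reads. Among the 3p arms, miR-23b-3p was at 0.70 (adjusted p = 0.0281) and miR-27b-3p at 0.59 (adjusted p = 0.0460), both under the fold threshold. The call of miR-23b-5p sat at the threshold. It was lost without 3 d replicate 1 (0.93), 3 d replicate 2 (1.01, adjusted p = 0.0945), 6 d replicate 2 (1.08, adjusted p = 0.0566) or 6 d replicate 3 (0.86). On the fold alone it was lost with a minimum total of 120 reads (0.97) and with limma on the normalized values (1.00). The comparisons of 3 d with 0 d and of 6 d with 3 d share the 3 d libraries.

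The ratio of the arms removes both library size and any change common to a hairpin. It was taken as 5p reads per 1000 3p reads of the same hairpin in the same library, from raw reads. For mir-27a it was 96.8, 98.8 and 99.5 at 0 d, 12.6, 15.3 and 14.2 at 3 d, 60.2, 62.2 and 138 at 6 d, then 59.9, 63.1 and 72.6 at 9 d. The 0 d libraries were almost equal, 0 d replicate 3 among them, and the 3 d libraries were lowest without overlap. The 6 d libraries were split, with replicate 3 well above the other 2.

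For mir-23a the ratio was 1.68, 1.81 and 2.65 at 0 d, 0.224, 0.434 and 0.219 at 3 d, 1.01, 1.07 and 1.67 at 6 d, followed by 1.3, 0.547 and 0.441 at 9 d. The 3 d libraries were again below all others, though the margin to 9 d replicate 3 was 0.434 against 0.441. mir-24-2 had 48.4, 53.1 and 89.2 at 0 d, 38.1, 35.1 and 33.4 at 3 d, 46.8, 46.0 and 55.6 at 6 d, then 62.8, 64.2 and 56.5 at 9 d. It too had its lowest libraries at 3 d, as did the other 2 hairpins of the a cluster. Both arms of mir-24-2 were compared with the caveat that miR-24-3p is shared with mir-24-1.

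In the b cluster, mir-23b had 10.0, 12.4 and 23.7 at 0 d, 5.99, 7.17 and 8.86 at 3 d, 7.45, 7.73 and 13.5 at 6 d, followed by 8.11, 6.57 and 6.96 at 9 d. Its 3 d and 9 d libraries overlapped, and the high 0 d value came from replicate 3. mir-27b had 2.35, 2.34 and 2.70 at 0 d, 1.70, 1.78 and 1.31 at 3 d, 2.93, 2.93 and 3.59 at 6 d, then 1.54, 1.34 and 1.51 at 9 d. This hairpin alternated, high at 0 d and 6 d and low at 3 d and 9 d, with no overlap between the high and the low days. mir-24-1 reached at most 2.46 per 1000 in any library and was 0 in 3 of them.

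**Figure D2:**
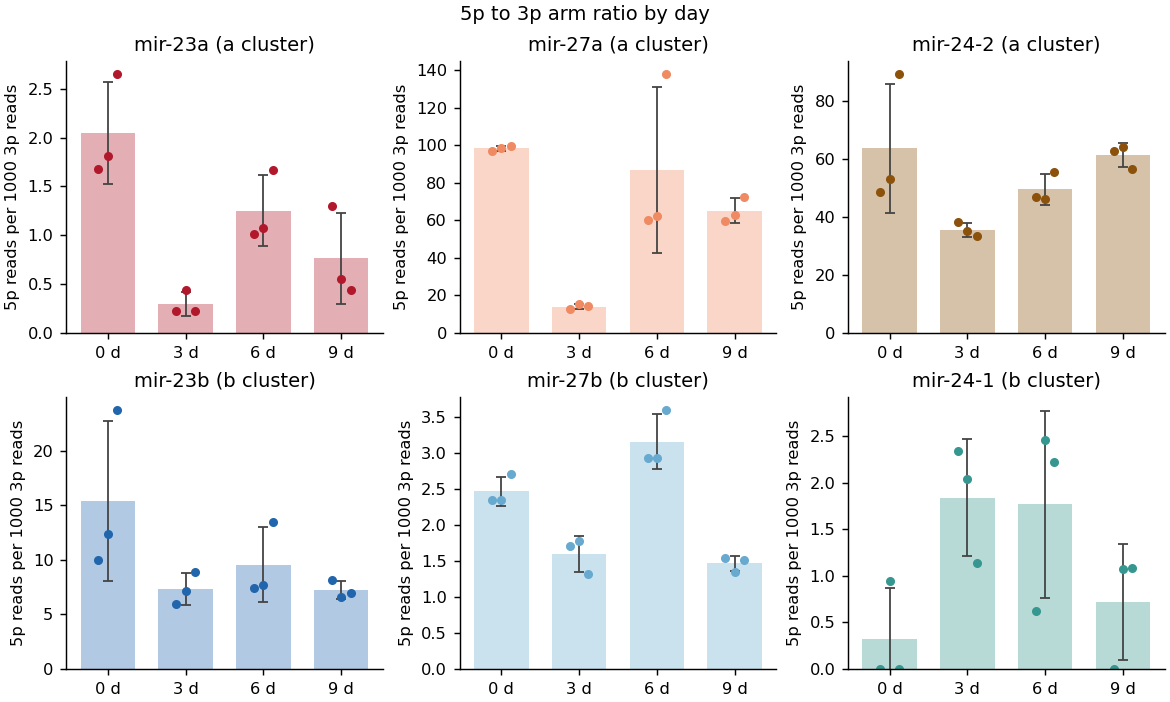
5p reads per 1000 3p reads of the same hairpin by day, one panel per hairpin with its own axis; bars are means, whiskers the SD of 3 libraries and points the libraries. mir-27a goes from a mean of 98.4 at 0 d to 14.0 at 3 d and 86.9 at 6 d, and mir-23a from 2.05 to 0.292 and 1.25.

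Log2 arm ratios of all 249 hairpins with at least 10 reads in each arm were fitted with limma. At 3 d against 0 d, 2 of the 6 hairpins were called, against 2.81% of all hairpins. The ratio of mir-27a fell by 2.79 on the log2 scale (SE 0.280, adjusted p = 3.10e-05), a 6.91-fold decrease in the fitted mean. That of mir-23a fell by 2.74 (SE 0.464, adjusted p = 0.00549), a 6.66-fold decrease. Both calls held in each alternative fit and with each library left out, and without 0 d replicate 3 the changes were -2.78 and -2.53. Ordered from the lowest change, mir-27a and mir-23a stood at ranks 4 and 5 of the 249.

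mir-23b was at -0.98 (adjusted p = 0.108), mir-24-2 at -0.79 (adjusted p = 0.0992) and mir-27b at -0.63 (adjusted p = 0.208), none of them called. mir-23b became called without 0 d replicate 1 (-1.24, adjusted p = 0.0427) and was at -0.62 without 0 d replicate 3, where mir-24-2 was at -0.51. mir-24-1 was at 1.94 with an SE of 0.979, or 0.57 with a pseudocount of 5. In 5 of the 6 hairpins every 3 d library had a lower ratio than every 0 d library. The same held for the less abundant arm of 15.7% of all 249 hairpins, and for 16.8% of the 125 hairpins whose 5p arm was the less abundant. The median change over those 125 was 0.00, against -0.88 over the 6. This tally of minor arms was made after the ratios had been seen.

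**Figure D3:**
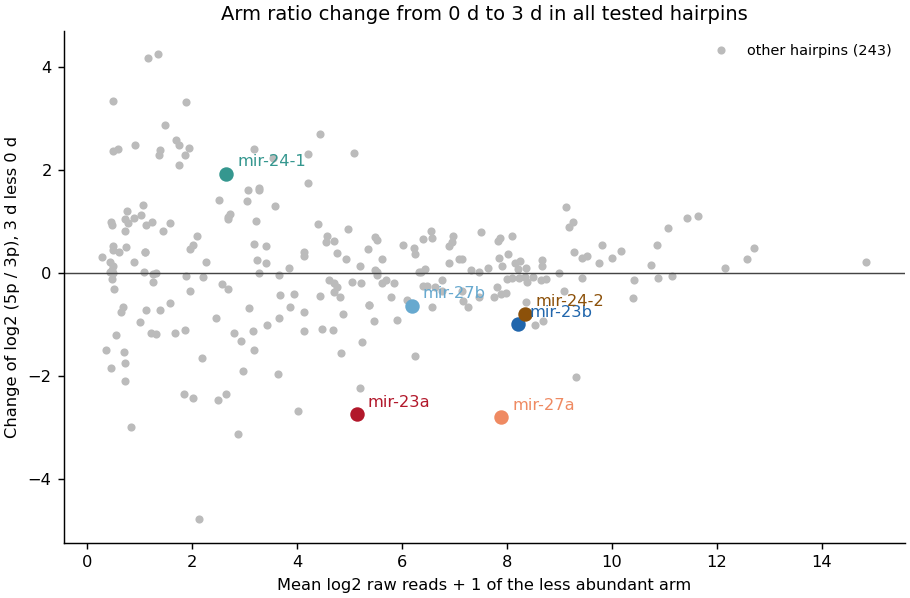
Change of the log2 5p to 3p ratio from 0 d to 3 d for all 249 tested hairpins, against the mean log2 raw reads plus 1 of the less abundant arm. Each point is a hairpin; mir-27a at -2.79 and mir-23a at -2.74 lie below most hairpins of like depth, and mir-24-1, with few reads, lies above 0.

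At 6 d against 0 d, 0 of the 6 hairpins were called with limma, against 5.22% of all hairpins. An unadjusted p under 0.05 was found in 0 of the 6, against 55 of all 249. At 9 d against 0 d, 1 of 6 was called, against 13.3% of all hairpins. The ratio of mir-23a fell by 1.54 (SE 0.464, adjusted p = 0.0398). That call was lost without a variance trend (adjusted p = 0.0690), with the replicate block (0.0511) and in a fit of the 6 libraries alone (0.136). It was also lost without 0 d replicate 1 (0.0562), 0 d replicate 3 (0.0930), 6 d replicate 1 (0.0559), 6 d replicate 2 (0.0521), 9 d replicate 2 (0.117) or 9 d replicate 3 (0.137). Over all its alternatives the adjusted p ran from 0.0213 to 0.137. mir-23b was at -1.0 (adjusted p = 0.0467), just short of the fold threshold, and was called without 0 d replicate 1 (-1.26) or 0 d replicate 2 (-1.10). Without 0 d replicate 3 it was at -0.64 (adjusted p = 0.112).

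At 6 d against 3 d, the arm ratio of mir-27a rose by 2.49 (SE 0.280, adjusted p = 0.000117), and this was the 1 hairpin called among all 249, or 0.402%. The call of mir-27a held in every alternative. mir-23a was at 2.01 (adjusted p = 0.0927) and was called too without 0 d replicate 3 or 9 d replicate 1. Leaving out those libraries or 3 d replicate 1 raised the number of hairpins called to 4, 2 and 2. mir-27b was at 0.96 (adjusted p = 0.107).

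Over the 4 days together, an exact permutation test of the F statistic (all partitions of the libraries into 4 days of 3, smallest possible p 6.49e-05) was run on each of the 6 log2 ratios. The exact p was 0.000584 for mir-27b, 0.00227 for mir-23a, 0.00403 for mir-27a, 0.0118 for mir-24-2, 0.0499 for mir-23b and 0.171 for mir-24-1, none of them adjusted. For mir-23b the value rose above 0.05 on leaving out any of 10 libraries, up to 0.164 without 0 d replicate 3, and fell to 0.0347 at the lowest. For mir-24-2 it rose to 0.0520 without 3 d replicate 3.

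The a and b hairpins were then compared directly, by the log2 ratio of an a hairpin less that of its b counterpart in each library. The comparison was added after the ratios had been seen. For mir-27a less mir-27b the mean difference was 5.30 at 0 d (SD 0.11), 3.14 at 3 d (SD 0.27), 4.67 at 6 d (SD 0.51) and 5.46 at 9 d (SD 0.17), with an exact permutation p of 0.000974. For mir-23a less mir-23b it was -2.82 at 0 d (SD 0.29), -4.57 at 3 d (SD 0.60), -2.90 at 6 d (SD 0.10) and -3.35 at 9 d (SD 0.67), with an exact permutation p of 0.00922. In both pairs the 5p share of the a hairpin was lowest, relative to the b hairpin, in the 3 d libraries. For mir-24-2 less mir-24-1 the exact permutation p was 0.0538, with values of 0.0450 without 0 d replicate 2 and 0.0392 without 9 d replicate 1. Both hairpins of that pair use the same miR-24-3p row, which cancels in the difference. That pair therefore compares only the 5p arms, and it rests on the few reads of miR-24-1-5p.

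The 3p arms of the paralogs, which share a seed, were compared by their proportions on each day. miR-23b-3p over miR-23a-3p averaged 0.717 at 0 d (SD 0.137), 0.721 at 3 d (SD 0.00603), 0.891 at 6 d (SD 0.103) and 0.887 at 9 d (SD 0.0751), with an exact permutation p of 0.0821. The 0 d libraries were 0.639, 0.638 and 0.875, and without replicate 3 of 0 d the exact permutation p was 0.00403. miR-27b-3p over miR-27a-3p averaged 6.75 at 0 d (SD 0.809), 7.43 at 3 d (SD 0.511), 8.03 at 6 d (SD 2.53) and 9.00 at 9 d (SD 0.542), with an exact permutation p of 0.298. Replicate 3 of 6 d stood at 10.8 beside 7.45 and 5.83, and without it the exact permutation p was 0.0360. Since 1 base separates these paralogs, reads that end before it cannot be assigned, and the proportions depend on how the authors counted them.

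The 8 abundant members were alike to different degrees. Over the 12 libraries, Pearson r of log2 normalized reads ran from -0.353, between miR-24-3p and miR-23b-5p, to 0.884, and was 0.884 between miR-23b-3p and miR-27a-3p, 0.793 between miR-23a-3p and miR-27a-3p, and 0.740 between miR-23a-3p and miR-23b-3p. miR-27a-5p correlated with miR-24-2-5p at 0.790 and with miR-23b-5p at 0.778, and with its own 3p arm at 0.671. miR-23b-5p and miR-23b-3p, from one hairpin, had an r of 0.295. These values describe libraries that share 4 days and carry no test.

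Among the 346 other rows with a mean of at least 100 normalized reads, those most like miR-27a-5p were bta-miR-222_R+4 (r 0.889), bta-miR-221_R+1 (0.840) and cpo-miR-99b-3p_R+1 (0.765). miR-23b-5p was most like bta-miR-365-5p (0.948), cpo-miR-99b-3p_R+1 (0.931) and pal-miR-9993a-3p (0.916). For miR-24-2-5p the list was bta-mir-7862-p5 (0.794), bta-miR-221_R+1 (0.764) and PC-3p-5549_839 (0.761). The 5p arms of miR-27a and miR-24-2 thus shared bta-miR-221_R+1 as a near neighbour.

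The 3p arms had other neighbours. miR-27b-3p was most like bta-miR-7862 (0.939), chi-miR-143-5p (0.922) and bta-miR-143_R-1 (0.920), and miR-23b-3p like bta-miR-193b_R-2 (0.899), bta-miR-455-3p_1ss22TC (0.882) and bta-miR-145 (0.852). miR-23a-3p was most like pal-miR-9226-5p (0.919), bta-miR-362-5p (0.866) and bta-miR-181c (0.859). miR-24-3p was most like bta-miR-345-3p_R+1 (0.915), bta-miR-660_R+1 (0.886) and bta-miR-34a_R+1 (0.860), and miR-27a-3p like hsa-miR-432-3p (0.850), bta-miR-455-3p_1ss22TC (0.840) and bta-miR-345-3p_R+1 (0.831). The mature 5p and 3p arms of miR-143, both near miR-27b-3p, come from a hairpin outside the clusters.

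The long-RNA libraries of the same days held rows for the hairpin genes, which were looked up after their values had been seen and are given without a test. MIR23A had 4.17, 3.81 and 3.52 FPKM at 0 d, 0.42, 0.50 and 0.47 at 3 d, 2.44, 1.63 and 1.16 at 6 d, followed by 5.64, 4.16 and 3.92 at 9 d. MIR27A had 6.35, 3.88 and 2.28 FPKM at 0 d, 0.68, 0.23 and 0.61 at 3 d, 3.42, 2.06 and 1.51 at 6 d, then 6.50, 3.73 and 3.52 at 9 d. Every 3 d library of both rows was below every library of the other days. MIR24-2, the third of the a cluster, had 2.15, 3.08 and 3.06 FPKM at 0 d and 0.49, 0.46 and 0.27 at 3 d. Fitted log2 changes at 3 d were -2.80 for MIR23A (SE 0.230), -2.80 for MIR27A (SE 0.463) and -2.51 for MIR24-2 (SE 0.262).

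In the b cluster the fitted 3 d changes of the rows were smaller. MIR23B had 2.07, 2.34 and 2.52 FPKM at 0 d and 0.85, 0.82 and 0.58 at 3 d, a log2 change of -1.51 (SE 0.399). MIR27B had 0.75, 1.33 and 0.98 FPKM at 0 d and 0.23, 0.29 and 0.49 at 3 d, a log2 change of -1.37 (SE 0.251). At 9 d, MIR23A and MIR27A were at 0.23 and 0.19 against 0 d, and MIR23B and MIR27B at -1.40 and -0.49. The rows do not say whether their reads came from the primary transcript or from other RNA over the hairpins, and their link with the 5p arms was not tested.

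AOPEP, the host of the b cluster, was listed in a row joined with MIR24-1. It had 335, 371 and 328 FPKM at 0 d, 144, 129 and 112 at 3 d, 247, 248 and 259 at 6 d, followed by 208, 227 and 201 at 9 d. The levels followed the order 0 d, 6 d, 9 d and 3 d with no overlap between any of them. With limma over 15401 mRNA rows, it fell by 1.43 on the log2 scale at 3 d (SE 0.0908, adjusted p = 4.95e-07), in a comparison where 23.3% of all rows were called. At 6 d and 9 d it was at -0.45 and -0.70, under the fold threshold.

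**Figure D4:**
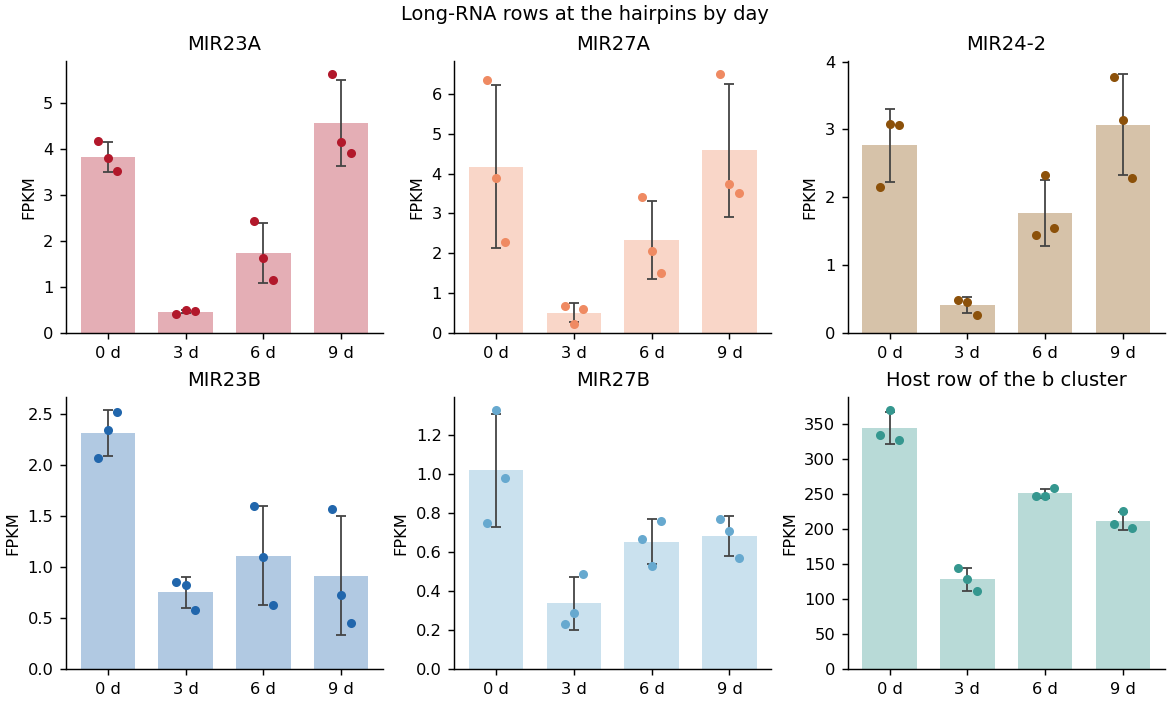
FPKM of the rows of 5 hairpin genes and of the host row of the b cluster by day; bars are means, whiskers the SD of 3 libraries and points the libraries. All panels are lowest at 3 d by their means, at 0.463 for MIR23A against 3.83 at 0 d, and at 128 for the host row against 345.

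The genes that process miRNAs and load them were not called at 3 d. Of 10 genes (DROSHA, DGCR8, XPO5, DICER1, TARBP2, PRKRA, AGO1, AGO2, AGO3 and AGO4), 0 were called at 3 d with limma against the 23.3% of all rows. An unadjusted p under 0.05 was reached by 2 of the 10, against 8818 of all 15401 rows. The median log2 change of the 10 was 0.02, against -0.06 over all rows. DROSHA had 7.56, 9.10 and 6.22 FPKM at 0 d and 9.20, 8.85 and 9.18 at 3 d. The 2 with the low unadjusted p were AGO4, at -0.93 (adjusted p = 0.00322), and TARBP2, at -0.62 (adjusted p = 0.000825), both under the fold threshold. AGO4 had 0.74, 1.35 and 1.32 FPKM at 0 d and 0.55, 0.46 and 0.58 at 3 d. TARBP2 had 32.1, 35.2 and 39.4 at 0 d and 24.7, 24.2 and 20.4 at 3 d, without overlap. Of the 10 genes, 6 had a log2 change above 0 at 3 d and 4 below. The largest in size was that of AGO1, at 0.95 (SE 0.521, limma adjusted p = 0.158). It had 11.8, 25.7 and 17.2 FPKM at 0 d and 46.7, 46.3 and 17.45 at 3 d, so that the days overlapped. AGO2, with the highest FPKM of the list, had 2308, 2306 and 1989 at 0 d and 2085, 2070 and 1873 at 3 d. Without 0 d replicate 1 or without 3 d replicate 3, 1 gene of the list was called at 3 d.

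PRKRA, a partner of DICER1, was the gene of that list called later. It had 7.34, 5.68 and 6.31 FPKM at 0 d, 2.28, 2.13 and 3.05 at 6 d, then 3.24, 2.91 and 3.03 at 9 d. It fell by 1.35 at 6 d (SE 0.139, adjusted p = 4.18e-05), where 11.4% of all rows were called, and fell by 1.04 at 9 d (SE 0.139, adjusted p = 0.000262), where 10.9% were. The 9 d call was lost when FPKM were rescaled between libraries (-0.85), with a pseudocount of 1 (-0.87) and without 0 d replicate 1 (-0.95). Rescaling raised the median log2 change of all rows by 0.15 at 6 d and 0.18 at 9 d, and the share of calls that were higher went from 29.8% to 40.4% at 6 d and from 31.3% to 46.4% at 9 d.

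Reported targets of the 3 families were followed in the same mRNA table. At 3 d, 7 of the 22 tested were called, all higher, with a median log2 change of 0.88 against -0.06. Of all rows 23.3% were called, and 34.6% of those calls were higher. For miR-27, 5 of 10 targets were called higher. ABCA1, the cholesterol exporter, had 267, 354 and 273 FPKM at 0 d, 3377, 2734 and 2700 at 3 d, 433, 376 and 483 at 6 d, followed by 981, 919 and 975 at 9 d. It rose by 3.30 at 3 d (SE 0.131, adjusted p = 1.59e-08), and its 3 d libraries were far above all others.

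GPAM, which starts glycerolipid synthesis, had 2.55, 1.91 and 1.2 FPKM at 0 d, 12.9, 14.2 and 13.0 at 3 d, 1.57, 4.33 and 4.10 at 6 d, then 2.98, 2.85 and 2.96 at 9 d. It rose by 2.82 at 3 d (SE 0.356, adjusted p = 8.14e-05). At 6 d its log2 change was 0.72, or 1.18 and called without 6 d replicate 1, 0.45 without 0 d replicate 3 and 0.47 without 6 d replicate 2. At 9 d it was 0.67, or 0.39 without 0 d replicate 3. CYP1B1, a cytochrome P450, rose by 2.46 at 3 d (adjusted p = 3.93e-09), FOXO1, an insulin-regulated transcription factor, by 1.71 (adjusted p = 1.24e-08) and LPL, lipoprotein lipase, by 1.2 (adjusted p = 0.000117).

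For miR-24, 2 of 9 targets were called at 3 d, a share near the 23.3% of all rows. BCL2L11, a promoter of apoptosis listed in a row joined with ACOXL, rose by 3.71 (SE 0.463, adjusted p = 7.42e-05), from 5.55, 14.1 and 3.53 FPKM at 0 d to 52.5, 124 and 99.99 at 3 d. MYC, the growth factor response gene, rose by 1.56 (SE 0.292, adjusted p = 0.00121), from 0.99, 1.33 and 0.83 FPKM to 4.84, 2.70 and 2.58. For miR-23, 0 of the 3 targets tested were called with limma at 3 d, 6 d or 9 d. An unadjusted p under 0.05 was found for 1, 1 and 0 of them, against 8818, 6644 and 6980 of all 15401 rows. One more target, TRIM63, had a mean of 0.0842 FPKM and was not tested.

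At 6 d, 0 of the 22 targets were called with limma, against 11.4% of all rows. An unadjusted p under 0.05 was reached by 12 of the 22 targets, against 6644 of all 15401 rows. With rescaled FPKM 1 was called, and leaving out any of the 0 d or 6 d libraries gave between 1 and 3. At 9 d, 4 of 22 were called, against 10.9% of all rows: ABCA1 rose by 1.70 (SE 0.131), CYP1B1 rose by 1.39 (SE 0.0803), ACVR1B, an activin receptor, rose by 1.05 (SE 0.110) and CREB1, a cAMP-responsive factor, fell by 1.01 (SE 0.249). CREB1 had 7.67, 6.50 and 15.1 FPKM at 9 d, and its call was lost with rescaled FPKM (-0.81), with a pseudocount of 1 (-0.93) and without 0 d replicate 1 (-0.94), 0 d replicate 2 (-0.99), 9 d replicate 1 (-0.88) or 9 d replicate 2 (-0.77). ACVR1B lost its call with a pseudocount of 1 (0.84), without 0 d replicate 2 (1.00) and without 9 d replicate 2 (0.97). Whether any of these changes goes through the miRNAs was not tested.

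**Figure D5:**
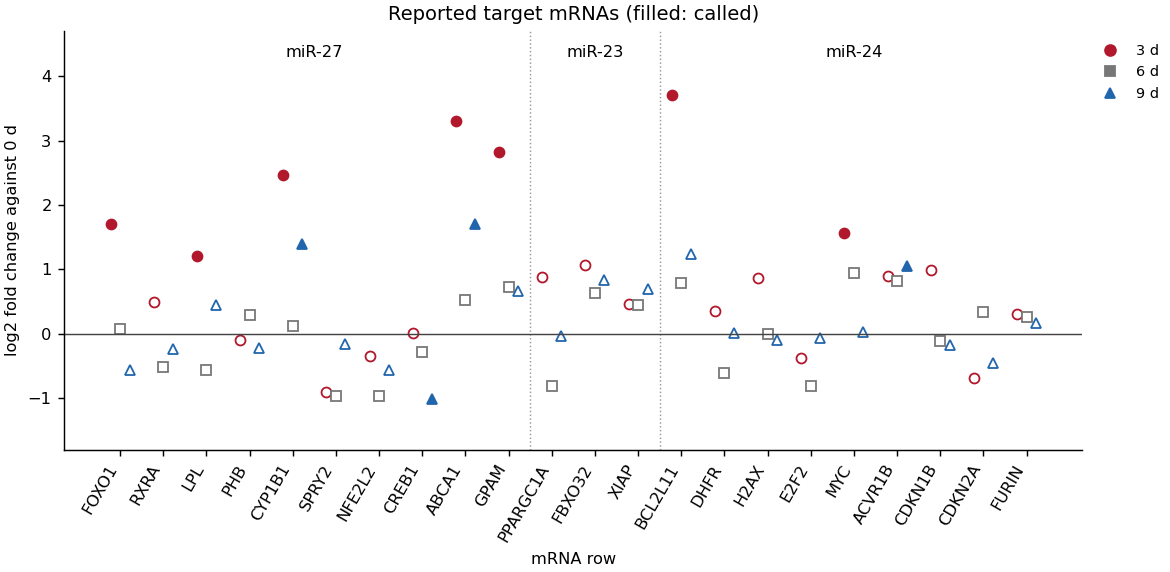
log2 fold change against 0 d of the 22 reported targets tested, grouped by miRNA family between dotted lines; circles are 3 d, squares 6 d and triangles 9 d, and filled symbols passed a change of 1 with an adjusted p under 0.05. The 7 filled circles, all above 0, include ABCA1 at 3.30 and BCL2L11 at 3.71.

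Markers of the cell type moved over the same days. The adipocyte marker FABP4 had 3.36, 3.02 and 3.52 FPKM at 0 d, 94.7, 86.2 and 92.3 at 3 d, 24.5, 26.4 and 28.4 at 6 d, then 7.59, 8.84 and 10.8 at 9 d. Of the 7 adipocyte markers, of which LPL is also among the targets above, 4 were called at 3 d, 3 higher and LEP lower, against the 23.3% of all rows. At 6 d and at 9 d 4 of the 7 were called, all higher (FABP4, LEP, ADIPOQ and CIDEC), against 11.4% and 10.9%. LEP had its highest libraries at 9 d, with 2.17, 2.39 and 2.47 FPKM at 0 d, 0, 0.21 and 0 at 3 d, 9.97, 8.60 and 5.5 at 6 d, then 25.3, 16.6 and 19.6 at 9 d. The defining CEBPA and CIDEC were low, with CEBPA at 0.08, 0.08 and 0.12 FPKM at 0 d and 0.18, 0.22 and 0.26 at 3 d, and CIDEC at a mean of 0.0833 at 0 d, 0.130 at 3 d, 0.307 at 6 d, then 0.407 at 9 d. The 6 preadipocyte or fibroblast-like markers summed to 118679, 115491 and 122840 FPKM at 0 d, 166463, 172356 and 174266 at 3 d, 134014, 129805 and 129488 at 6 d, then 221684, 210938 and 224182 at 9 d. COL3A1 was the most abundant, and DLK1 had a mean of 0.0367. Most of the 3 d rise came from DCN, with a mean of 9949 FPKM at 0 d and 42430 at 3 d, beside COL3A1 with 105843 and 126606. At 3 d PDGFRA rose by 2.54, DCN by 2.09 and THY1 by 1.85 on the log2 scale, while COL1A1 fell by 1.68.

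Skeletal muscle markers were present at 0 d, with DES the most abundant at a mean of 393 FPKM on that day and MYOD1 at 268. The 7 of them summed to 824, 864 and 938 FPKM at 0 d, 269, 297 and 292 at 3 d, 398, 378 and 421 at 6 d, followed by 326, 292 and 323 at 9 d. At 3 d 6 of the 7 were called, all lower, against the 23.3% of all rows. This sum was lowest at 3 d by its mean, as were DES and CKM, while MYOD1, MYF5, MYOG, MYH3 and ACTA1 had lower means at 6 d and 9 d than at 3 d. Blood and immune markers summed to at most 0.50 FPKM in any library, with PTPRC and HBB at 0, and endothelial markers to at most 2.64 FPKM, nearly all VWF. The part of these shifts in the miRNA changes was not tested.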

How the data were processed

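For the 12 cultures the authors deposited a miRNA table, an mRNA and an lncRNA table and a circRNA table. In the miRNA table the authors gave estimated counts (raw reads matched to miRBase hairpins, with values that are not all whole) and a normalized signal, which is the raw value times 1 factor per library. The deposited mRNA and lncRNA values are FPKM from HISAT2 2.0 and StringTie 1.3.0, as the notes of the deposit list them, while the study's methods name another HISAT2 release. The deposited circRNA values are counts of back-spliced reads with a scaled signal. Rounded raw reads were fitted with edgeR 4.0.16 (TMM, quasi-likelihood), arm ratios (1 read added to each arm) and log2(FPKM + 0.1) of rows averaging at least 0.1 with limma 3.58.1, under R 4.3.3, each over its whole table with Benjamini-Hochberg adjustment. Exact tests were two-sided in effect, since F has no sign. The fits were tested on simulated data, and the outcome is not given here. Alternatives were DESeq2 1.42.0, other filters, pseudocounts and scalings, the replicate block and each library left out. The members and lists were chosen with earlier results of these data known. Rows with a mean of at least 100 normalized reads were given in full. For each of these, the 3 most correlated other rows were named. Of the lists, called genes were named, with GPAM always. Some rows of the lists are not reported here.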

Additional observations from a re-analysis of the deposited data

How the results depend on the processing

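Over the fold changes for which alternatives were run, the settings other than a library left out kept 290 on their side of the threshold and took 13 calls away, and none changed sign. Leaving out 1 library kept 583, ended 22 calls, made 5 and turned the sign of 2. Those were miR-24-3p at 3 d (from -0.07 without 0 d replicate 3 to 0.25) and miR-27b-3p at 3 d (from -0.16 to 0.06 without 0 d replicate 2), both near 0. Fitting only the 6 libraries of the days compared, which leaves fewer libraries to estimate the spread, gave 2 of the 12 members at 3 d (miR-27a-5p and miR-23a-5p) and 0 at 9 d, with 40 of all names at 3 d and 66 at 6 d. For arm ratios it gave 4 hairpins at 3 d, 1 at 6 d, 1 at 9 d with 0 of the 6, and 5 at 6 d against 3 d with 2 of the 6. A minimum total of 120 reads left 3 members called at 6 d against 3 d, where miR-27a-p5 was no longer tested. Without a variance trend the arm ratios gave 4 hairpins at 3 d, 20 at 9 d with 0 of the 6, and 2 at 6 d against 3 d, and a pseudocount of 5 also gave 2 there. With the replicate block 0 of the 6 hairpins were called at 9 d (mir-23a, adjusted p = 0.0511). The labels do not say that the replicate numbers pair the libraries. Deviations from the day means correlated over 0.1 in 4 of the 18 same-number pairs of the miRNA table, among them all 3 between 0 d and 6 d (0.137, 0.112 and 0.305), and in 2 of the 18 of the mRNA table. Pairs of different numbers were over 0.1 in 5 of 36 for miRNA and 3 of 36 for mRNA. In the miRNA values these included 0 d replicate 1 with 6 d replicate 2 (0.158) and 0 d replicate 2 with 6 d replicate 1 (0.123).

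With a pseudocount of 1 in place of 0.1, the mRNA rows called were 2184 at 3 d, 967 at 6 d and 888 at 9 d, the processing genes 0 and the targets 2 at 9 d. A mean FPKM of at least 1, which tests fewer rows, gave 1114 rows at 9 d. Rescaled FPKM gave 1 target at 6 d and 0 processing genes at 9 d. DESeq2 lowered the share of called names that were higher from 60.9% to 48.8% at 3 d, from 63.1% to 48.5% at 6 d and from 56.6% to 43.5% at 9 d. The cause of these shifts was not tested.

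With each library left out in turn, members called at 9 d ranged from 0 to 2. All hairpins called ranged from 3 (without 3 d replicate 3) to 16 (without 0 d replicate 1) at 3 d, where 0 d replicate 2 gave 12. They ranged from 4 (without 6 d replicate 1 or 2) to 23 (without 0 d replicate 1) at 6 d, where 6 d replicate 3 gave 6, and from 14 to 49 at 9 d, with 17, 17 and 14 without each 9 d library. At 6 d against 3 d they ranged from 1 to 4. Of the 6 hairpins, 0 to 2 were called at 9 d and 1 to 2 at 6 d against 3 d. Processing genes called ranged from 0 to 1 at 3 d and at 9 d, and targets from 0 to 3 at 6 d and from 2 to 5 at 9 d. Exact permutation p-values over the 4 days ranged from 0.0347 to 0.164 for mir-23b, from 0.00156 to 0.0520 for mir-24-2, from 0.00403 to 0.143 for miR-23b-3p over miR-23a-3p, from 0.0360 to 0.513 for miR-27b-3p over miR-27a-3p and from 0.0392 to 0.132 for mir-24-2 less mir-24-1. Those of mir-27a, mir-23a and mir-27b stayed under 0.05 throughout. Depth limits miR-23a-5p at 3 d and miR-24-1-5p and miR-27a-p5 on all days.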

Other observations

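Several RNAs outside the miRNA table have been linked with miR-27b in the study's network, and their values are given here without a test. ciRNA489, an intronic circular RNA from GLIS3, had 6, 3 and 4 back-spliced reads in the 3 d libraries and 0 in all libraries of the other days. circRNA5454 likewise had 2, 4 and 2 back-spliced reads at 3 d and 0 elsewhere. ciRNA823 had 7 reads in all at 6 d, 2 at 9 d and 0 at 0 d and 3 d. circRNA1948 had 9 reads in all at 0 d, 6 at 3 d and 0 later. circRNA2038, the most abundant of the 5, had 93 reads over the 0 d libraries, against 32, 36 and 73 over those of 3 d, 6 d and 9 d. With 5358 to 10729 back-spliced reads per library, 3 reads are the limit below which a zero tells little, and of the 5 circles circRNA2038 alone was above it in every library.

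The lncRNAs MSTRG.21593.1 and MSTRG.5205.1 ranged from 0.86 to 1.68 and from 2.66 to 11.1 FPKM at 0 d. At 3 d they ranged from 0.07 to 0.13 and from 0.07 to 0.20 FPKM, below every library of the other days.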
